A study of Mus musculus with 70 samples.

Results

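miR-124 is one of the most abundant miRNAs of the brain and is best known from neurons, where it holds down transcripts of other cell types and helps neurons to differentiate. In microglia, the resident immune cells of the brain, it has been proposed as a regulator of the quiescent state. Like other miRNAs it is cut as a short duplex from a hairpin precursor, and the strand that is loaded into Argonaute guides it to target transcripts by pairing through its seed, bases 2 to 8 from the 5′ end. For miR-124 the 3′ strand (mmu-miR-124-3p, here miR-124-3p) is the guide, and the 5′ strand (mmu-miR-124-5p, here miR-124-5p) is mostly discarded.

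Both arms were chosen by name from 1882 distinct miRNAs and candidate miRNAs in small RNA sequencing of wild-type C57BL/6 mice, and both were among the 1072 that passed the abundance filter. Whole brains of male and female mice were dissociated at 3 ages, 6 days (P6), 15 days (P15) and 8 weeks (8W) after birth. CD45+ cells, called microglia here, were captured by immunopanning on an antibody-coated dish. The remaining CD45- cells are called bulk CNS cells and comprise mainly neurons, oligodendrocytes and astrocytes. One library was made from each fraction of each mouse, and 68 libraries of 34 mice were analysed, with 10 mice at P6 (4 female, 6 male), 12 at P15 and 12 at 8W (6 of each sex). No treatment was given.

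Library totals ranged from 1678034 to 8747394 counts, and the floor of 3 counts therefore lay at 0.343 to 1.79 CPM (counts scaled to a library total of 1000000). A list of 7 myeloid miRNAs summed to between 18616 and 57036 CPM in microglia and to between 201 and 905 CPM in bulk cells. CD45 also marks other leukocytes. A list of 3 erythroid miRNAs was higher in microglia too, with 3 of 3 called and a median log2 fold change of 2.99 against 0.29 over all 1072 features, of which 23.3% were called higher. With the ages pooled the 4 oligodendrocyte and 2 endothelial miRNAs were called lower in microglia, where 21.8% of all features were, and the 4 mural or fibroblast miRNAs did not pass the test. At P6 2 of the 4 oligodendrocyte miRNAs were called lower, against 10.6% of all features. A list of 11 miRNAs known from neurons summed to 88779 to 213032 CPM in microglia at P6, against 302927 to 330842 CPM in bulk cells. The sums were 30895 to 152234 against 208041 to 268873 CPM at P15, and 38991 to 103227 against 113727 to 135256 CPM at 8W. The ranges did not overlap at any age. The most abundant member of the list made up most of the sum in every group, and was not called lower in microglia at any age. The part of carried-over neuronal material in the microglial values of miR-124 was not tested.

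Mature miR-124 comes from 3 precursor genes in the GRCm38 annotation (GENCODE vM21). Mir124a-1 lies at chr14:64590657-64590741 on the plus strand, within an exon of the lincRNA Mir124a-1hg. Mir124a-2 lies at chr3:17795662-17795770 on the plus strand inside the lincRNA Mir124-2hg, where it overlaps an exon of 1 transcript in part and is intronic in others. Mir124a-3 lies at chr2:180894040-180894107 on the plus strand and shares its last 3 bases with the lincRNA Gm27032. The deposited table listed each arm 3 times. The entries of miR-124-3p differed by at most 39 counts in a library and those of miR-124-5p by at most 3, so the output of the 3 genes cannot be told apart, and the entry with the largest total was used.

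The miRNAs whose levels followed each arm most closely over the 68 libraries are given first, since the 5 closest in levels differed between the arms. Their mature sequences are from RefSeq (GRCm38.p6), written 5′ to 3′ with the seed in capitals. Of the 15 closest miRNAs, in levels or in deviations from the group means, 14 were matched in that table, all but miR-135b-5p, and 0 of the 2 miR-124 arms were, so these are named only. The first 5 sequences are of miRNAs that followed miR-124-3p, and the other 4 of miRNAs that followed miR-124-5p.
miR-218-5p: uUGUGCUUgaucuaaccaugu
miR-128-3p: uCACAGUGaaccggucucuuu
miR-136-3p: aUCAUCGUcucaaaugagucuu
miR-127-3p: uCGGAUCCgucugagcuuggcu
miR-873a-5p: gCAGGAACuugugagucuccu
miR-181d-5p: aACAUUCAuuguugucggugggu
miR-488-3p: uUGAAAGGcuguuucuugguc
miR-672-5p: uGAGGUUGguguacuguguguga
miR-9-5p: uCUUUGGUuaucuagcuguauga

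Pearson's r with miR-124-3p lay between 0.953 (miR-873a-5p) and 0.961 (miR-218-5p), on log2 CPM over the 68 libraries. Within 1 fraction r of these miRNAs was lower, at 0.643 to 0.764 in microglia and 0.866 to 0.923 in bulk cells. miR-128-3p and miR-218-5p are enriched in neurons, and miR-136-3p and miR-127-3p are made from the imprinted cluster on chromosome 12. The closest neighbours of miR-124-5p were miR-181d-5p (r = 0.896), miR-488-3p (r = 0.893), miR-135b-5p (r = 0.882), miR-672-5p (r = 0.877) and miR-9-5p (r = 0.865), the last of which is also abundant in neural progenitors. No name was on both of these lists of levels. Between the arms themselves r was 0.42 over all libraries, 0.25 within microglia and -0.39 within bulk cells (n = 34 each). When the mean of each age, sex and cell type was taken out, r between the arms was 0.50. The miRNAs closest to miR-124-3p in these deviations were miR-128-3p (r = 0.812), miR-135b-5p, miR-218-5p, miR-137-3p and miR-411-5p, and those closest to miR-124-5p were miR-130a-3p (r = 0.742), miR-497a-5p, miR-181d-5p, miR-195a-5p and miR-9-5p. Thus miR-135b-5p was close to miR-124-5p in levels and to miR-124-3p in deviations. These correlations describe libraries that share groups and depth.

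To ask how miR-124 was divided between microglia and bulk cells, the fractions of each mouse were compared. miR-124-3p was lower in microglia at each age, and the gap was 2.86-fold at P6 and 6.17-fold at 8W. It was lower in microglia in 34 of 34 mice. At P6 it stood at 23925 ± 6093 CPM in microglia and 67068 ± 20886 CPM in bulk cells (mean ± SD, n = 10), and the ranges, 18176 to 39577 and 40038 to 114643 CPM, did not overlap. At P15 microglia ranged from 10869 to 35002 CPM with a median of 19638, and bulk cells from 67134 to 118853 CPM with a median of 78166. At 8W microglia ranged from 11765 to 44855 CPM with a median of 18255, and bulk cells from 89882 to 147712 CPM with a median of 122254. The groups stood apart at every age. miR-124-3p was the most abundant miRNA in each of the 12 bulk libraries at 8W, where it made up 12.01% ± 1.93 of all counts (SD, n = 12). In microglia at 8W it still made up 1.96% ± 0.880 (SD, n = 12) and ranked between 7 and 22.

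**Figure D1:**
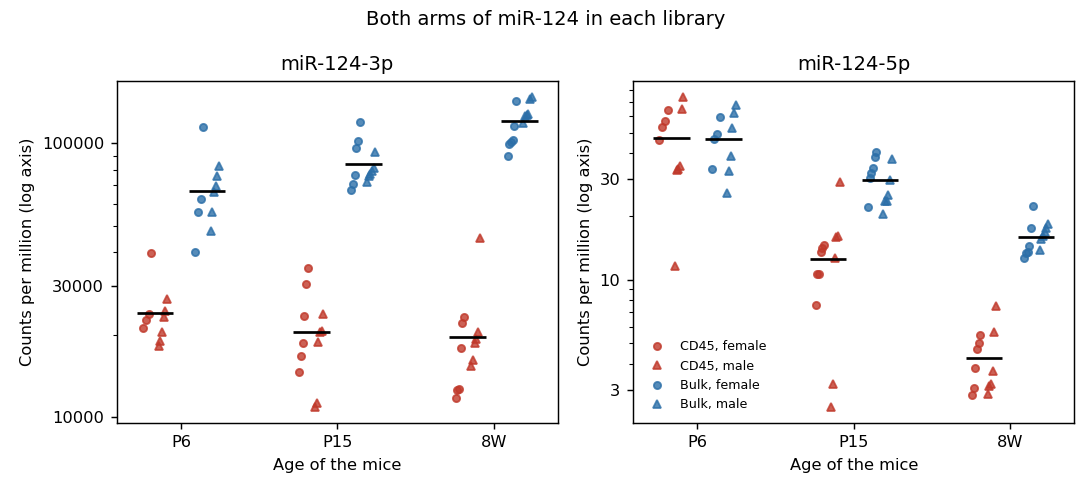
Level of each miR-124 arm in every library, in CPM on a log axis, by age and fraction. Circles are females, triangles males, and black bars group means. For miR-124-3p the microglial (CD45) points lie below the bulk points at each age, while for miR-124-5p both fractions overlap at P6 and the microglial points fall to between 2.85 and 7.52 CPM at 8W.

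In the limma-voom fit, tested with TREAT for a change beyond a log2 fold change of 1, the log2 fold change of miR-124-3p between microglia and bulk cells was -2.01 ± 0.09 (SE) with the ages pooled (adjusted p = 2.71e-16), a contrast in which 45.1% of the 1072 features were called and 21.8% were called lower. It was -1.52 ± 0.17 at P6 (adjusted p = 0.00699), where 28.1% were called, -1.90 ± 0.15 at P15 (adjusted p = 3.55e-07), where 39.9% were called, and -2.63 ± 0.15 at 8W (adjusted p = 1.46e-15), where 44.9% were called. The median feature lay at 0.25 at P6, 0.28 at P15 and -0.10 at 8W. In samples of many cells, fewer neurons and less miR-124 per cell cannot be told apart.

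miR-124-5p was far scarcer and was divided otherwise. At P6 it ranged from 11.6 to 74.1 CPM in microglia (median 49.7) and from 25.8 to 67.6 CPM in bulk cells (median 47.9). The ranges overlapped, and it was lower in microglia in 4 of 10 mice. Its log2 fold change at P6 was -0.10 ± 0.19 (adjusted p = 1), with a 95% interval of -0.49 to 0.29. At P15 it stood at 12.6 ± 6.90 CPM in microglia and 29.9 ± 6.83 CPM in bulk cells (SD, n = 12), and at 8W at 4.25 ± 1.45 and 16.1 ± 2.78 CPM (SD, n = 12). It was lower in microglia in 12 of 12 mice at each of these ages, and the ranges at 8W, 2.85 to 7.52 and 12.7 to 22.5 CPM, did not overlap. The log2 fold change was -1.87 ± 0.28 at 8W (adjusted p = 0.00430), and it did not pass the test at P15 (-1.26 ± 0.23, adjusted p = 0.263) or with the ages pooled (-1.07 ± 0.14, adjusted p = 0.535). With library size alone the difference at P15 passed (-1.47, adjusted p = 0.0455). The values at 8W rest on 13 to 39 reads per microglial library and 51 to 145 per bulk library. With all libraries thinned to the smallest total, an alternative chosen after the data were seen, the log2 fold change at 8W was -1.77 and its call was lost (adjusted p = 0.0563), while that at P15 was -1.73 and passed (adjusted p = 0.0326).

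The design also asks how miR-124 changed as the brain matured. In microglia miR-124-5p fell, while no change of miR-124-3p was called. From P6 to 8W the log2 fold change of miR-124-3p in microglia was 0.09 ± 0.18 (adjusted p = 1), with a 95% interval of -0.26 to 0.44. Its sign depended on the scaling, being -0.38 with library size alone, and TMM moved the median of all features by 0.46 in this contrast and by 0.32 in the same contrast of bulk cells. miR-124-5p fell 7.69-fold over the same span (log2 fold change -2.94 ± 0.30, adjusted p = 1.13e-07), in a contrast where 16.6% of features were called and 9.42% were called lower. The 10 microglial libraries at P6 lay at 11.6 CPM or above and the 12 at 8W at 7.52 CPM or below. Only 37 of the 1072 features had a lower log2 fold change. In the same contrast 3 of 4 oligodendrocyte and 1 of 7 myeloid miRNAs were called higher, against 7.18% of all features. Of the 4 mural or fibroblast miRNAs 2 were called lower, against 9.42%, and 0 of the erythroid and endothelial miRNAs were called. The part of such cell types in the change of miR-124 was not tested.

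The fall of miR-124-5p between P6 and P15 was -1.95 ± 0.25 on the log2 scale (adjusted p = 0.00823), where 2.89% of features were called. Its call depended on males 5 and 6 at P15. These had 3.19 and 2.48 CPM of miR-124-5p (14 and 8 reads), and 10869 and 11274 CPM of miR-124-3p, the lowest values of both arms at P15. The same libraries had the lowest sums of the neuronal list (42562 and 30895 CPM), also without miR-9 (5059 and 3948 CPM), and of the mural or fibroblast list (3492 and 2042 CPM), and ranked 1 and 3 from the lowest of 12 on the oligodendrocyte list, 6 and 5 on the endothelial, 9 and 4 on the erythroid and 9 and 12 on the myeloid list. The part of other cell types in the values of these libraries was not tested. With 1 mouse left out at a time the log2 fold change stayed between -2.10 and -1.74, and it passed in 32 of 34 fits. It was -1.77 without male 5 (adjusted p = 0.0551) and -1.74 without male 6 (adjusted p = 0.0514). Without both, an alternative chosen after the data were seen, it was -1.501 (adjusted p = 0.364).

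In bulk cells the fold changes of the arms had opposite signs. miR-124-3p stood at 67068 CPM at P6, 84129 CPM at P15 and 120148 CPM at 8W on average, and miR-124-5p at 46.8, 29.9 and 16.1 CPM. From P6 to 8W the log2 fold changes were 1.20 ± 0.16 for miR-124-3p (adjusted p = 0.308) and -1.17 ± 0.21 for miR-124-5p (adjusted p = 0.525), in a contrast where 25.7% of features were called. Neither exceeded a log2 fold change of 1 by the TREAT test, and both differed from 0 in the moderated limma test (adjusted p = 1.19e-09 and 2.10e-06). With library size alone in place of TMM the log2 fold change of miR-124-5p was -1.49 and passed (adjusted p = 0.0377). That of miR-124-3p did not pass with library size alone, and TMM raised the median of all features by 0.32 in this contrast. Female 5 at P6 had the most miR-124-3p of the bulk libraries at that age, 114643 CPM, and also of the microglial ones, 39577 CPM. Without this mouse the log2 fold change of miR-124-3p was 1.42 and passed (adjusted p = 0.0130). From P6 to 8W 4 of 4 oligodendrocyte miRNAs (4.07 to 4.34 on the log2 scale) and 1 of 3 erythroid were called higher, against 13.2% of all features. Of the 4 mural or fibroblast miRNAs 1 was called higher and 2 lower, against 12.4% called lower. Of the myeloid and endothelial miRNAs 0 were called. The part of cell composition in the change of miR-124 was not tested.

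Whether the change with age differed between microglia and bulk cells was tested as an interaction. From P6 to 8W it was -1.11 ± 0.22 for miR-124-3p (adjusted p = 0.801) and -1.77 ± 0.34 for miR-124-5p (adjusted p = 0.0867), where 14.6% of features were called and the median was -0.49. Neither was called. With mouse as a fixed replicate block the interaction of miR-124-5p was -1.79 (adjusted p = 0.0473), and in the moderated test against 0 both passed (adjusted p = 2.57e-05 and 1.46e-05).

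Since both arms of a library share its scaling, their ratio was examined next. In microglia the median was 532 reads of miR-124-3p for each read of miR-124-5p at P6, 1673 at P15 and 4656 at 8W. In bulk cells it was 1450, 3012 and 7679. The ratio ranged from 255 to 1562 in microglia at P6 and from 2703 to 7893 at 8W, with no overlap. In bulk cells it ranged from 678 to 2698 at P6 and from 5625 to 10491 at 8W, again with no overlap. At each age the median was lower in microglia than in bulk cells, so that microglia held more miR-124-5p for each miR-124-3p. Within the same mouse the ratio was lower in microglia in 10 of 10 mice at P6, in 10 of 12 at P15, all but males 5 and 6, and in 12 of 12 at 8W, while the ranges of the fractions overlapped at every age.

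**Figure D2:**
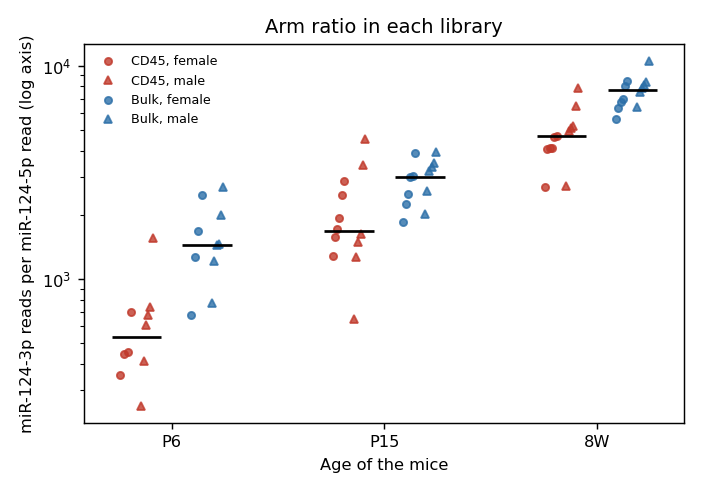
Reads of miR-124-3p per read of miR-124-5p in every library, on a log axis, by age and fraction. Circles are females, triangles males, and black bars group medians. The medians climb from 532 to 4656 in microglia (CD45) and from 1450 to 7679 in bulk cells between P6 and 8W.

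The ratio was tested over the 323 miRNAs with both arms past the filter. From P6 to 8W the log2 ratio of 5p to 3p fell by 3.05 ± 0.27 in microglia (adjusted p = 6.00e-09), where 6.19% of pairs were called, and by 2.39 ± 0.20 in bulk cells (adjusted p = 7.33e-08), where 8.05% were called. The median pair lay at -0.13 and -0.19. Only 2 of the other pairs fell further in microglia, those of miR-449a and miR-216b, and 6 in bulk cells. From the neuronal list 4 miRNAs had both arms tested, miR-9, miR-132, miR-137 and miR-153. None of these ratios was called between P6 and 8W in either fraction, and their log2 changes ranged from -0.84 to 1.01 in microglia and from -1.12 to 1.43 in bulk cells. Between fractions the 5p to 3p ratio of miR-124 was higher in microglia by 1.41 ± 0.19 on the log2 scale at P6 (adjusted p = 0.504), 0.64 ± 0.21 at P15 (adjusted p = 1) and 0.75 ± 0.25 at 8W (adjusted p = 1). These differences did not pass the test beyond a log2 fold change of 1, where 0.619% of pairs were called at P6, 0.929% at P15 and 0.619% at 8W. They passed the moderated test against 0 (adjusted p = 1.89e-08, 0.0157 and 0.0156). At P6 301 of the 323 pairs had a lower value than miR-124 and at 8W 278. The 4 neuronal pairs at P6 stood at 1.37 ± 0.37 (miR-137), 0.76 ± 0.31 (miR-153), -0.0044 ± 0.093 (miR-9) and -1.44 ± 0.42 (miR-132), so that the value of miR-137 lay near that of miR-124, and at 8W they ranged from -0.13 to 0.69. None of them was called by TREAT (adjusted p = 1 for each). The interaction of age and fraction from P6 to 8W was -0.66 ± 0.31 (adjusted p = 1), where 0.310% of pairs were called.

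To place miR-124 beside other miRNAs of neurons, its ratio between the fractions was compared with that of the neuronal list in the same mouse. The list comprises miR-9-5p and miR-9-3p, miR-128-3p, miR-129-5p, miR-129-2-3p, miR-132-3p and miR-212-5p, which respond to neuronal activity, miR-137-3p, miR-138-5p, miR-153-3p and miR-218-5p. Of the 10 members tested, 8 were called lower in microglia with the ages pooled, against 21.8% of all features, with a median log2 fold change of -1.93 against 0.29 over all features. miR-212-5p averaged at most 0.274 CPM in any group and did not pass the filter, so its ratio is set mostly by the pseudocount of 0.5 CPM. It remains among the 11 members of the list median used next. The mean log2 ratio of miR-124-3p to its bulk level was -1.46 at P6, -2.11 at P15 and -2.70 at 8W, and that of miR-124-5p was -0.07, -1.41 and -1.84. The list median was -1.64, -1.90 and -2.15.

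miR-124-3p lay above the list median by 0.18 ± 0.24 at P6 (SD, n = 10, above in 8 mice, exact sign-flip permutation test, two-sided, adjusted p = 0.0527). It lay below it by a mean difference of -0.20 ± 0.19 at P15 (SD, n = 12, above in 2 mice, exact permutation test, adjusted p = 0.00586). At 8W the difference was -0.55 ± 0.25 (SD, n = 12, above in 0 mice, exact permutation test, adjusted p = 0.00293). miR-124-5p lay above the list in each of the 10 mice at P6, by 1.57 ± 0.61 (SD, exact permutation test, adjusted p = 0.00586). It lay above it by 0.49 ± 0.56 in 10 of 12 mice at P15 and by 0.31 ± 0.33 in 9 of 12 mice at 8W (SD, exact permutation test, adjusted p = 0.0188 for each). Without miR-212-5p alone, an alternative chosen after the data were seen, miR-124-3p passed at P6 too (0.23, above in 8 of 10 mice, exact permutation test, adjusted p = 0.0164), and the other 5 calls held, with adjusted p between 0.00293 and 0.0171. The difference of miR-124-3p at P15 did not pass without miR-9 (-0.11, adjusted p = 0.0552) or without miR-132-3p and miR-212-5p (-0.10, adjusted p = 0.0576), and that of miR-124-5p at 8W did not pass against the list mean (0.084, adjusted p = 0.326).

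**Figure D3:**
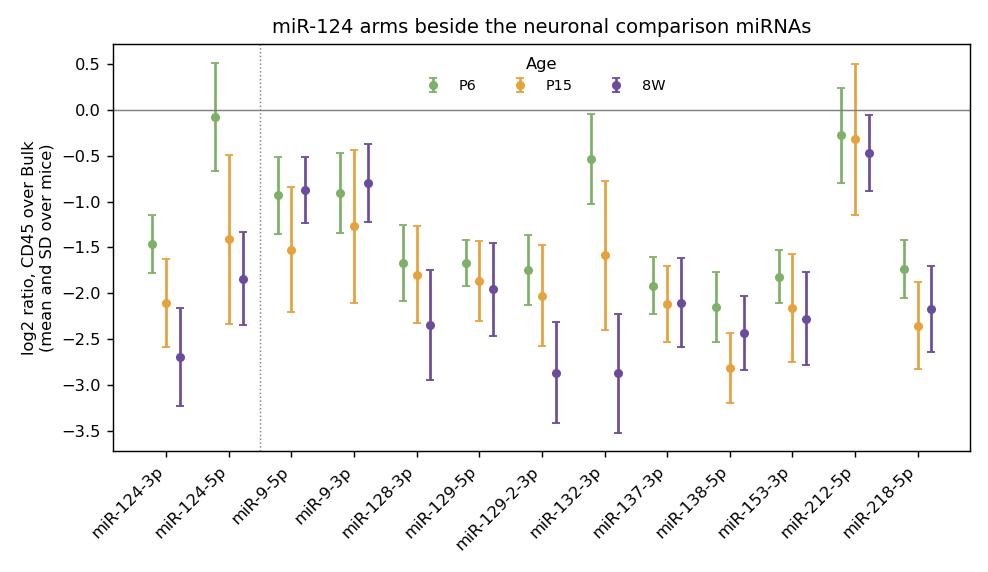
Log2 ratio of CPM in microglia (CD45) over bulk cells for both miR-124 arms and the 11 neuronal comparison miRNAs, as the mean and SD over 10 mice at P6 and 12 at P15 and 8W. miR-124-3p stands at -1.46 at P6 and -2.70 at 8W, and miR-124-5p stands near 0 at P6. miR-212-5p was at or near 0 counts in most libraries.

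Some members of the list rose with age in both fractions. From P6 to 8W miR-132-3p rose by 4.14 and miR-129-2-3p by 2.67 on the log2 scale in bulk cells (adjusted p = 1.05e-21 and 4.49e-11), and by 1.95 and 1.67 in microglia (adjusted p = 0.000394 and 0.0180). miR-138-5p rose by 1.42 in bulk cells (adjusted p = 0.00449) and had a log2 fold change of 1.31 in microglia (adjusted p = 0.0969). miR-9-5p fell by 1.48 in bulk cells (adjusted p = 0.0193) and had a log2 fold change of -1.31 in microglia (adjusted p = 0.202). Of the list, 2 of 10 rose and 0 fell in microglia, against 7.18% and 9.42% of all features, and 3 rose and 1 fell in bulk cells, against 13.2% and 12.4%. Of the 10, miR-132-3p had a called interaction (-2.18, adjusted p = 0.000669), a share near the 14.6% of all features called in that contrast.

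The level of miR-124-3p in microglia varied between mice of one age, and was compared with the neuronal list in the same libraries, so that both measures share a library and its depth. With the summed CPM of the list, Pearson's r was 0.567 at P6 (n = 10, permutation p = 0.105, adjusted p = 0.152), 0.737 at P15 (n = 12, permutation p = 0.00661, adjusted p = 0.0198) and 0.440 at 8W (n = 12, permutation p = 0.152, adjusted p = 0.152). Spearman's rho was 0.697, 0.503 and 0.580 (permutation p = 0.0291, 0.0985 and 0.0523, adjusted p = 0.0785, 0.0985 and 0.0785). Without the 2 mice farthest from the median of the list r was 0.575, 0.439 and 0.336 (permutation p = 0.135, 0.204 and 0.362). The relation at P15 thus no longer passed without those mice, which also narrows the range of the list and the number of mice. miR-9-5p took a median of 87.0% of the sum at P6 and 76.6% at 8W in microglia, and the relation was therefore also taken with the mean log2 CPM of the other 9 members, a choice made after the data were seen. Then r was 0.483 at P6 (permutation p = 0.156, n = 10), 0.818 at P15 (permutation p = 0.00098, n = 12) and 0.973 at 8W (permutation p = 1e-05, the smallest possible, n = 12), with adjusted p = 0.156, 0.00147 and 3e-05. Spearman's rho was 0.503, 0.825 and 0.958 (permutation p = 0.144, 0.00144 and 1e-05), and r without the 2 farthest mice was 0.441, 0.593 and 0.958 (permutation p = 0.282, 0.0719 and 2e-05).

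**Figure D4:**
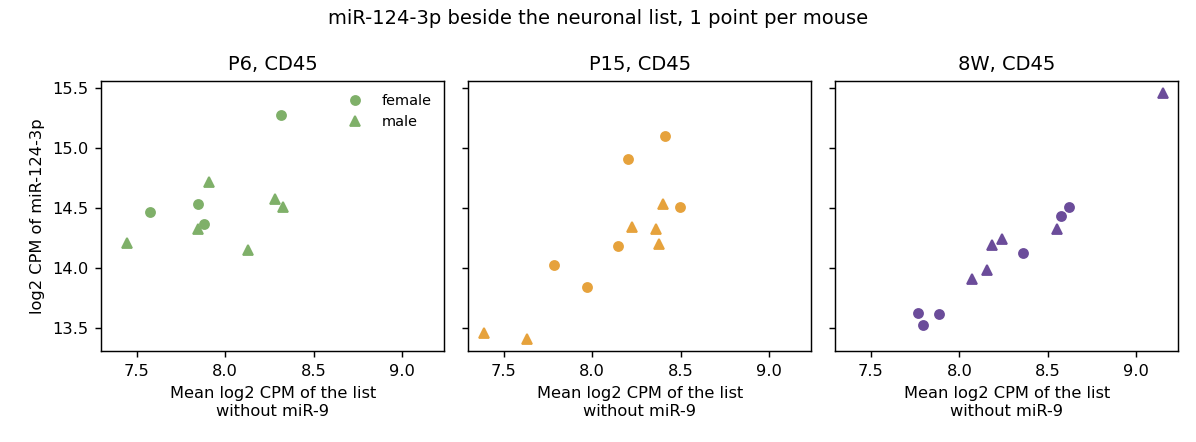
Log2 CPM of miR-124-3p against the mean log2 CPM of the neuronal list without miR-9 in the microglial libraries of each age, with 1 point per mouse (circles females, triangles males). The points lie close to a line at 8W (r = 0.973) and scatter at P6 (r = 0.483).

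No difference between the sexes was called. In microglia the study itself reported no miRNA as differing between the sexes at any age. A lack of calls there is therefore not particular to miR-124. Of 12 comparisons (both arms, each age and fraction) 0 passed the TREAT test and 0 had an unadjusted p below 0.05 by it, with log2 fold changes of males against females between -0.67 and 0.31. By the moderated limma test, the edgeR quasi-likelihood test and the DESeq2 Wald test 0 passed after adjustment, and 1 in each had an unadjusted p below 0.05.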

How the data were processed

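Small RNA libraries (MGIEasy chemistry) of both fractions of 35 mice were sequenced. The deposited table holds raw read counts, which the authors obtained by trimming with fastp (0.20.0, per the labels) and matching to miRBase with miRDeep2, with mm10/GRCm38 as the genome. This counter assigns a read to every precursor it matches. For repeated names (79 of 1885) the entry with the largest total was kept. P6 female mouse 6 was left out with both its libraries, because the study removed 1 mouse and its source data do not list this one. That identity was inferred and is uncertain. Its CPM of miR-124-3p was 46560 in microglia and 91748 in bulk cells.

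The filter asked for 1 CPM in 5 libraries or more. The limma-voom model of TMM-scaled counts (R 4.3.3 with edgeR 4.0.16 and limma 3.58.1) had 12 means of age, sex and fraction with mouse as a random effect. The study's methods name age, sex and cell type as fixed effects and mouse as a random effect, and the combined means, which allow interactions, were chosen here. Contrasts were averaged over the sexes and tested with TREAT at a log2 fold change of 1 and a Benjamini-Hochberg FDR of 0.05 over all 1072 features, or over 323 arm pairs for the 5p to 3p ratio (voom values, combined weights). Ratios between fractions and correlations used log2(CPM + 0.5). Sign flips were exact, correlations used 100000 permutations (SciPy 1.17.1), and both were adjusted over the ages, the former also over the arms. Scripts were tested on simulated counts that held no effect of mouse, so the pairing of fractions was not part of that test. Mice are separate animals. Fractions with 1 mouse number come from 1 brain, and their deviations from the group means correlated at a mean r of 0.359 over features with a mean log2 CPM above 5, against -0.07 for other mice of the group. Floors of 3 counts cover counting error only.

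The members, lists and tests were chosen with earlier results of these data known. Genes named beside the members are the neuronal list, counts of the marker lists, and the 5 miRNAs with the highest Pearson r with each arm, in levels and in deviations from the group means. Other miRNAs were named after their values were seen. miRNAs sharing a seed with miR-124 were not analysed here. Alternatives covered the test, the mouse block, scaling, filter, repeated entries, the mouse set aside and each mouse left out.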

Additional observations from a re-analysis of the deposited data

Results flagged for a closer look

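Of 36 sets of values (both arms and their ratio in each of the 12 groups of age, sex and fraction), 2 held a library far from the rest of its group by Dixon's test, and chance alone gives about 1 in 20. miR-124-3p in microglia of 8W male 3 was the highest of 6 males, at 44855 CPM, with a gap to the next library of 0.730 of the group's range. The same library also had the largest sum of the neuronal list without miR-9 (13246 CPM) and of the oligodendrocyte list (3259 CPM) among the 12 microglial libraries at 8W. Counted from the lowest, it ranked 7 on the whole neuronal list (57919 CPM), 6 on the endothelial list (3283 CPM), 5 on the myeloid list (48310 CPM), 2 on the erythroid list (14744 CPM) and 1 on the mural or fibroblast list (3492 CPM). The ratio of 5p to 3p in microglia of 8W female 4 was the highest of 6 females, with a gap of 0.666 of the range, and rested on 21 reads of miR-124-5p. The part of other cell types in these values was not tested.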

How the results depend on the processing

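Under the alternatives other than leaving out a mouse, 231 of 267 values of the 30 main results kept their side of the threshold. Among all results 0 reversed while called. A contrast called in neither setting counted as kept even where its sign changed. That was so for miR-124-3p in microglia from P6 to 8W with library size alone. The calls of miR-124-3p between fractions, of miR-124-5p in microglia from P6 to 8W and of the arm ratio from P6 to 8W held under each alternative run. Without the fold change threshold (moderated limma), by edgeR and by DESeq2, results that TREAT did not call passed: miR-124-3p from P6 to 8W in bulk cells (1.20, 1.13 and 1.09) and its interaction (-1.11, -1.02 and -0.98), and miR-124-5p with ages pooled (-1.07, -0.98 and -0.98), at P15 (-1.26, -1.05 and -1.13), from P6 to 8W in bulk cells (-1.17, -1.22 and -1.26) and its interaction (-1.77, -1.84 and -1.80). These tests ask for a difference from 0. The edgeR and DESeq2 fits also had no term for mouse, so they treated both fractions of a brain as independent. The moderated test also called the arm ratio between fractions, pooled (0.94), at P6 (1.41), at P15 (0.64) and at 8W (0.75). With library size alone miR-124-5p passed at P15 (-1.47), in bulk cells from P6 to 8W (-1.49) and as an interaction (-1.93). At P15 it also passed with at least 10 counts in at least 12 libraries (-1.52) and after thinning (-1.73), while thinning lost its call at 8W (-1.77). With mouse as a fixed replicate block the interaction of miR-124-5p passed (-1.79, adjusted p = 0.0473), and no other call of an arm between fractions or as an interaction changed under that block. No replicate block at all changed no call. Against the neuronal list, miR-124-3p passed at P6 without miR-212-5p (0.23), without miR-9 (0.28) and without miR-132-3p and miR-212-5p (0.28), and did not at P15 without miR-9 (-0.11) or without miR-132-3p and miR-212-5p (-0.10), and miR-124-5p at 8W did not against the list mean (0.084). The relation at 8W passed without miR-9 (r = 0.973). The causes were not tested.

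With each mouse left out in turn, miR-124-3p in bulk cells from P6 to 8W ranged from 1.12 to 1.42 and passed in 1 of 34 fits, without P6 female 5. Against the list at P6 it ranged from 0.15 to 0.24 and passed in 2 of 10, without P6 male 1 or P6 male 5. The other contrasts and list comparisons among the main results kept their calls. The relations to the neuronal list were not recomputed with each mouse left out, and without the 2 mice farthest from the list median r at P15 was 0.439 against 0.737. Of the intermediate steps, the arm ratio in microglia from P6 to P15 (-1.76, adjusted p = 0.125) passed without P6 male 1 (-1.88, adjusted p = 0.0246). Of 340 alternative values of the other results, 319 kept their side. Depth limits miR-124-5p in microglia, where a library held 13 to 39 reads at 8W and 8 to 98 at P15.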

Other observations

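A miRNA named miR-124b-3p is also in the table, named here after its values were seen. It had 85 counts in all over 70 libraries, at most 16 in one. It was above 0 in 21 libraries, 4 of them microglial with 8 counts in total, and it did not pass the filter.

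The pairs whose 5p to 3p ratio fell further than that of miR-124 between P6 and 8W were also looked up. miR-449a, known from ciliated cells, had log2 changes of -4.78 in microglia and -4.46 in bulk cells (limma TREAT, adjusted p = 3.54e-09 and 5.42e-09), and miR-216b of -4.19 and -3.14 (adjusted p = 7.33e-05 and 0.00478). In bulk cells miR-702 (-3.19), miR-27a (-2.93) and miR-1298 (-2.40) also fell past the threshold, while miR-7658 (-2.53) did not.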
